A study of Mus musculus with 48 samples.

Results

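The genes described here encode the receptor subunits for the amino acid neurotransmitters glutamate, GABA and glycine. They were chosen by symbol among protein-coding mouse genes: every ionotropic glutamate receptor subunit (Gria, Grik, Grin and Grid genes), every metabotropic glutamate receptor (Grm), every GABA-A subunit gene matching the letters a, b, g, d, e, p, q or r after Gabr, both GABA-B subunits and every glycine receptor subunit. The choice found 52 of the 38293 genes in the count table: 4 AMPA, 5 kainate, 7 NMDA, 2 delta, 8 metabotropic glutamate, 19 GABA-A, 2 GABA-B and 5 glycine receptor genes. RNA was sequenced from the dorsal vagal complex (DVC, the hindbrain site where vagal afferents from the gut end) and from the mediobasal hypothalamus (MBH) of male C57/Bl6 mice 9 weeks old on standard chow, all fasted for 6 h and injected intraperitoneally with 10 µL per g of body weight. The 4 treatments were AC3174, given at 1 µg/kg, AC170222, given at 2.5 µg/kg, a combination of both drugs, and saline. The labels also write the second drug as AC710222, with doses that differ, and the dose in the combination, the time to dissection and how many mice make a sample are nowhere stated in these sources. From each homogenate, RNA on ribosomes pulled down through phosphorylated S6, a ribosomal protein (IP), and total RNA (input) were sequenced, which gives 16 groups of 3 libraries, 1 group for each treatment in each RNA kind and region. The capture takes ribosomes from any cell that carries the phosphorylated protein, a mark that rises in active neurons.

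Ionotropic receptors are ion channels built from several subunits. Glutamate opens AMPA, kainate and NMDA receptors and excites the cell, while GABA and glycine open anion channels of the GABA-A and glycine receptor families, which usually inhibit it. Metabotropic glutamate receptors and the GABA-B heterodimer act through G proteins on slower time scales, before and after the synapse. In the DVC glutamate is the main transmitter of vagal afferents, and glycine is a major inhibitory transmitter of the brainstem beside GABA. In the MBH, GABA is the main fast inhibitory transmitter.

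The promoters of 3 of the genes whose RNA differed between the regions are shown, as examples of both directions: Glrb and Grin1, higher in the DVC, and Gabra5, higher in the MBH. Other genes differed by more, Glra1 among them. Each line gives the 250 bases before the annotated start of the gene, 5′ to 3′ on the gene's own minus strand, from RefSeq on GRCm38.p6: Glrb at chr3:80913661-80913910, Grin1 at chr2:25319188-25319437 and Gabra5 at chr7:57510060-57510309. Capitals mark matches, on either strand, to 1 of 4 sequences that were searched: the GC box GGGCGG, the TATA box TATAAA, the CCAAT box CCAAT and the cAMP response element TGACGTCA.
Glrb: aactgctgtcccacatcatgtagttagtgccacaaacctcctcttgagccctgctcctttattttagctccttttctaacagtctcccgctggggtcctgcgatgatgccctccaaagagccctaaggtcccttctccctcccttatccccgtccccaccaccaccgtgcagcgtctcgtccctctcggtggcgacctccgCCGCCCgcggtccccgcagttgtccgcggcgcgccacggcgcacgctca
Grin1: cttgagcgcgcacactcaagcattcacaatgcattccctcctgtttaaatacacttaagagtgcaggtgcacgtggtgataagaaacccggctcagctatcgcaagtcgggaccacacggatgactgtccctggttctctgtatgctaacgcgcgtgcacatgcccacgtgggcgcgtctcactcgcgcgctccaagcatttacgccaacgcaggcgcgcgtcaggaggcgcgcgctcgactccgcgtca
Gabra5: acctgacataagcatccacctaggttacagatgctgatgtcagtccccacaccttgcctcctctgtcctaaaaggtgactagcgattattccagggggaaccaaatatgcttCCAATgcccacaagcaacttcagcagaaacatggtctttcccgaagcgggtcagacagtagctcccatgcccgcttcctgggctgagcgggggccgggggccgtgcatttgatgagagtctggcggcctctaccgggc
The Glrb window held 1 GC box, read on the other strand, the Gabra5 window held 1 CCAAT box, and the Grin1 window held none of the 4. RefSeq promoter entries were matched by symbol for 36 of the 52 members. A GC box was found in 20 of these 36 windows, against 32.9% of the 27025 windows of all genes. CCAAT was found in 15 of the 36 (34.5% of all windows), TATAAA in 4 of the 36 (13% of all) and TGACGTCA in 0 of the 36 (1.62% of all). The median GC content was 60.8% in the 36 member windows and 52.0% in all windows. These matches are letters in a window and were not tested as sites.

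Total counts per library ranged from 102116189 to 191252522 in IP and from 29492622 to 95079227 in input libraries of the DVC. In the MBH they ranged from 21782798 to 73940674 in IP and from 36542586 to 80084056 in input libraries. Markers of the regions, from lists chosen with earlier results of these data known, went with the labels. Of 10 tested DVC markers 9 were higher in DVC input than in MBH input. Of 10 tested MBH markers 10 were lower there (edgeR quasi-likelihood test, adjusted p below 0.05). Counts for fewer than 12000 genes were found in 6 IP libraries: DVC AC3174 3 and MBH saline 3, AC3174 2, AC3174 3, AC170222 2 and AC170222 3. The MBH input library saline 2 held 12853 genes and 30 of the 52 members, fewer than any other input. The DVC sample combination 2 carried RNA of cerebellar markers, with 2824 CPM summed over 9 genes in its IP library (median of 12, 128) and 747 CPM in its input library (median 164). Library codes in the labels carry numbers 1 to 6; libraries with numbers 1 and 2, 3 and 4, and 5 and 6 are called library sets 1, 2 and 3 here, and the sources used here do not say what the numbers stand for. Set 1 holds saline and AC170222, set 3 holds AC3174 and the combination, and set 2 holds 1 library of each treatment, so treatment and set are partly confounded.

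Levels are given as CPM, the reads of a gene for every 1000000 reads of its library, after scaling by the trimmed mean of M values. Most members tested between the regions lay at middle levels among all genes tested. By mean input level, 2 of 47 were at 0.0244 to 1.33 CPM and 19 at 1.33 to 11.7 CPM. Another 17 were at 11.7 to 45.9 CPM and 9 above 45.9 CPM. Each of these ranges held 4644 genes. In DVC inputs the 52 members summed to a median of 1374 CPM (range 1230 to 1745), with 42 to 46 of them detected in each library. In MBH inputs the sum had a median of 1090 CPM (range 582 to 1217), with 30 to 45 detected. The IP libraries held fewer members, with 15 to 43 detected in DVC IP and 12 to 42 in MBH IP. To compare one gene with another, CPM were divided by the exon length of the gene in kb (CPM per kb), and the values in the next paragraphs are on that scale as mean ± SD over 12 inputs of a region. The length counts all annotated exons of a gene, and orders and shares on this scale depend on that choice.

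Among the glutamate channels, Gria1, the AMPA subunit known for activity-dependent trafficking, had the highest level in both regions, at 17.3 ± 3.63 CPM per kb in DVC and 16.6 ± 5.23 in MBH. Gria3 was the lowest AMPA gene, at 3.48 ± 1.34 in DVC and 1.84 ± 1.12 in MBH. In DVC each step in the order Gria1, Gria4, Gria2 and Gria3 was larger than the larger SD of its 2 genes. Divided by the longest coding transcript instead, the order stayed, at 18.9, 10.3, 9.09 and 6.61, with Gria4 and Gria2 closer together. SDs were not taken on that length. In MBH Gria2, the subunit that makes edited AMPA channels impermeable to calcium, stood above Gria4. Among kainate genes Grik5, which binds glutamate with high affinity and needs a partner subunit to form a channel, was highest in both regions (3.66 ± 1.53 in DVC, 1.93 ± 1.79 in MBH) and Grik3 was lowest (0.488 ± 0.493 in DVC, 0.551 ± 0.609 in MBH). Grin1, the subunit every NMDA receptor contains, led its class in DVC at 5.36 ± 1.79. In MBH Grin3a, a glycine-binding subunit, was at 2.31 ± 1.14 and Grin1 at 2.05 ± 0.974, a gap smaller than their spread. The lowest NMDA genes were Grin2a in DVC (0.10 ± 0.115) and Grin3b in MBH (0 in all 12 inputs). The delta receptor gene Grid1 was low, at 0.656 ± 0.458 in DVC and 0.323 ± 0.393 in MBH.

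Among metabotropic glutamate receptors Grm3, a Gi-coupled receptor found on neurons and astrocytes, was highest in DVC at 6.18 ± 2.04 CPM per kb. In MBH Grm7, a presynaptic Gi-coupled receptor, was highest at 2.46 ± 1.47, a lead over Grm5 smaller than their spread. Grm6, which serves the ON bipolar cells of the retina, had 0 counts in all 48 libraries. Gabbr1, the GABA-B subunit that binds GABA, was at 20.3 ± 3.34 in DVC and 13 ± 2.67 in MBH, above its partner Gabbr2, which couples to the G protein, at 3.51 ± 1.64 in DVC and 1.44 ± 0.938 in MBH. Glrb, the subunit that anchors glycine receptors to the scaffold protein gephyrin, was the highest of all 52 members in DVC, at 43.5 ± 9.56, and stood at 11.2 ± 5.87 in MBH. The lowest glycine receptor gene in both regions was Glra4, at 0.0280 ± 0.0970 in DVC and 0.176 ± 0.408 in MBH.

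Among the GABA-A genes of DVC, Gabra3 was at 10.8 ± 3.55 CPM per kb and Gabra5 at 10.5 ± 2.68, a gap smaller than their spread. In MBH the leading GABA-A gene was Gabra5, an alpha subunit known from extrasynaptic receptors, at 23.7 ± 8.93, and it was also the highest of all 52 members there. Gabra6, the alpha subunit of cerebellar granule cells, was at 0 in all 24 MBH libraries. In DVC it was found in 4 of 24 libraries, at 7.33 CPM in input AC3174 1, 13.1 CPM in input combination 2, 9.54 CPM in IP AC3174 2 and 5.74 CPM in IP combination 2; the input and IP libraries of combination 2 are those with the highest cerebellar marker sums. The rho and pi subunit genes, known from retina and from tissues outside the brain, were close to absent. Gabrr1 had counts in 1 of 48 libraries, Gabrp in 1 of 48 and Gabrr3 in 5 of 48. Gabrr2 reached 1.31 ± 2.20 CPM in DVC inputs and 1.83 ± 3.07 CPM in MBH inputs, with 7 of 12 DVC and 6 of 12 MBH inputs at 0.

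**Figure D1:**
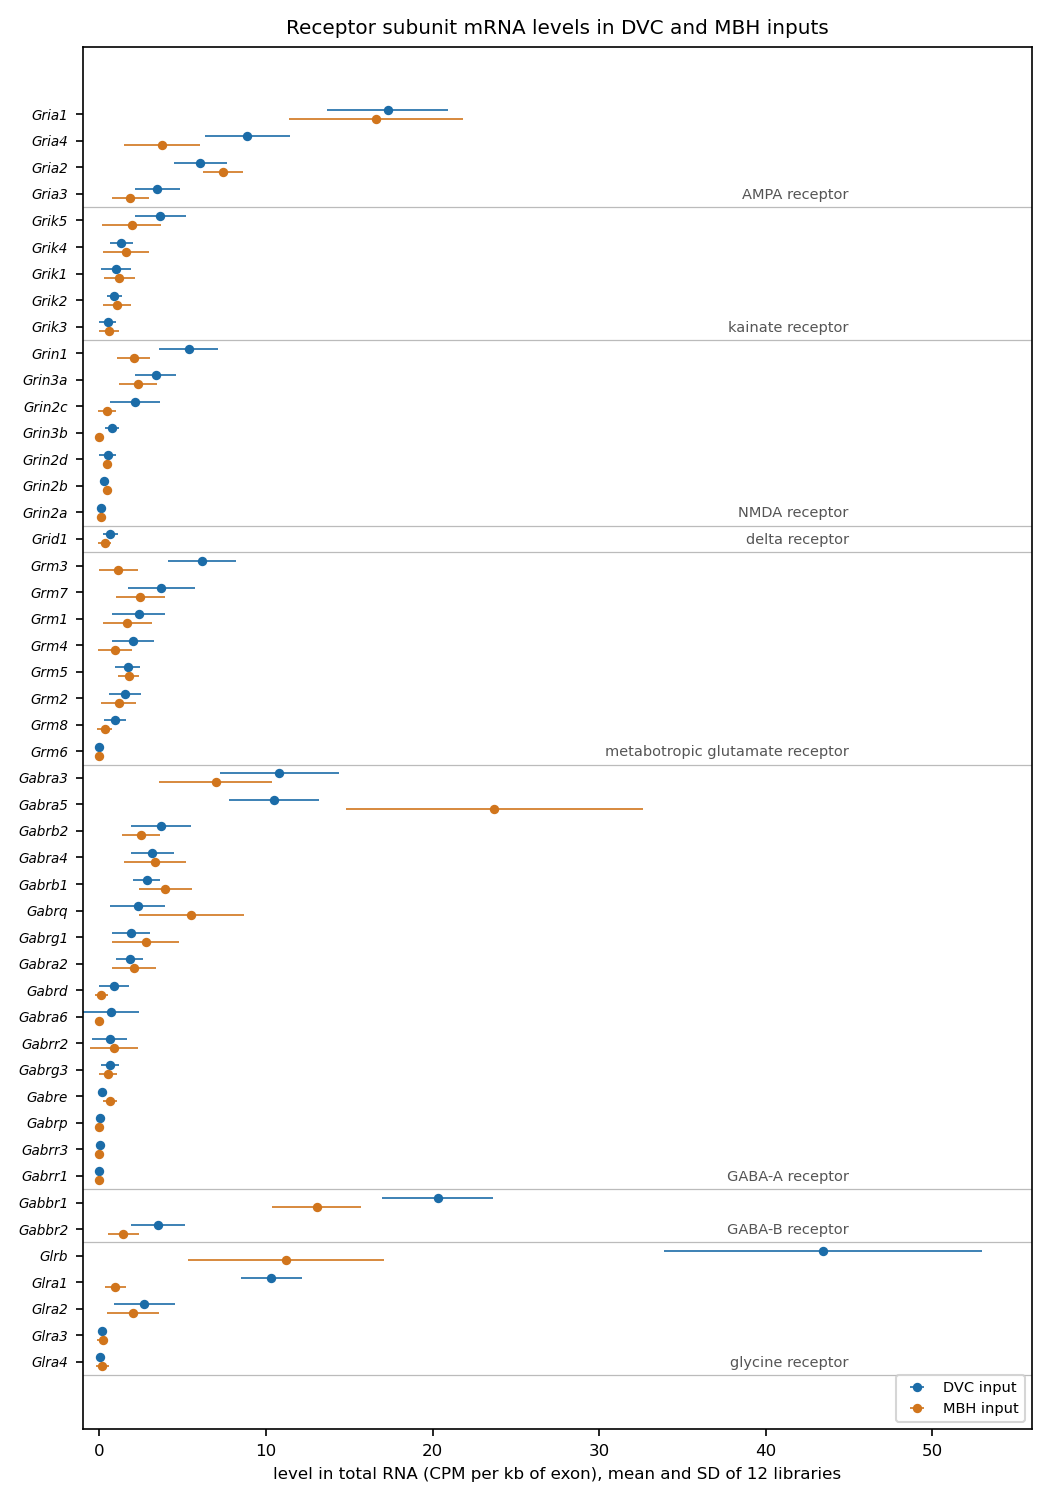
Level of 48 of the 52 members in input libraries, in CPM per kb of exon, as the mean and SD of 12 DVC inputs and 12 MBH inputs, grouped by receptor class. Glrb stands highest in DVC at 43.5 CPM per kb and Gabra5 highest in MBH at 23.7 CPM per kb.

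Many GABA-A genes lie in clusters. On GRCm38 with GENCODE M21 positions, Gabrg1, Gabra2, Gabra4 and Gabrb1 lie on chromosome 5, Gabra6 and Gabrb2 on chromosome 11, Gabrg3 and Gabra5 on chromosome 7, Gabre, Gabra3 and Gabrq on chromosome X, and Gabrr2 and Gabrr1 on chromosome 4, each with less than 1000000 bases between neighbours. Outside the GABA-A family Gria2 (chr3:80681450-80802835) and Glrb (chr3:80843599-80913660) are neighbours on the minus strand. Levels within a cluster were not alike: in MBH inputs Gabra5 (chr7:57407672-57510059, minus strand) was at 23.7 CPM per kb and Gabrg3 (chr7:56716465-57387188, minus strand) at 0.529 CPM per kb.

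The first comparison set DVC input against MBH input, over 12 libraries each, and asked which receptor genes differ between the tissues. Of the 52 members, 47 passed the filter on low counts and 9 were called at an adjusted p below 0.05 (edgeR quasi-likelihood test, Benjamini-Hochberg adjusted over 18576 genes). The called share, 19.1%, was close to the 21.9% of all genes tested. By direction, 8 members were higher in DVC (11.7% of all genes) and 1 was lower (10.2% of all genes). The 8 higher genes were both chains of the adult glycine receptor, Glra1 and Glrb, the NMDA subunits Grin1 and Grin3b, the kainate subunit Grik5, the metabotropic receptor Grm3, Gabbr1 and the GABA-A subunit Gabrd. The 1 lower gene was Gabra5. The median log2 difference (DVC minus MBH) was 0.56 over the 47 members and 0.10 over all genes. Above 0 were 33 of the 47 members and 54.8% of all genes. In bulk tissue, fewer cells that express a gene and less RNA per cell cannot be told apart.

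Glra1 (chr11:55514238-55608198, minus strand), the alpha subunit of adult brainstem and spinal glycine receptors, ranged from 18.8 to 32.8 CPM in DVC inputs (median 24.4) and from 0.524 to 5.50 CPM in MBH inputs (median 2.10). No DVC input overlapped the MBH range. The log2 difference was 3.65 ± 0.29 (SE; adjusted p = 2.56e-08, edgeR). Its partner Glrb ranged from 128 to 270 CPM in DVC inputs (median 206) and from 0.0181 to 118 CPM in MBH inputs (median 51.3), again with no overlap. The log2 difference was 2.01 ± 0.49 (adjusted p = 0.00545, edgeR). The lowest MBH value, 0.0181 CPM, is that of saline 2, the input library with the fewest genes. Glra2, the alpha subunit that prevails before birth, did not pass the test between regions and averaged 8.46 ± 5.75 CPM in DVC inputs and 6.26 ± 4.91 CPM in MBH inputs (SD, n = 12 each). Glra1 made up 79.2 ± 11.3% of the summed CPM per kb of the 4 alpha genes in DVC inputs and 41.4 ± 27.0% in MBH inputs, while Glra2 made up 19.3% in DVC inputs and 50.8% in MBH inputs. The neuronal glycine transporter Slc6a5, from the list of transmitter synthesis and transport genes, averaged 56.3 ± 19.4 CPM in DVC inputs and 0.232 ± 0.799 CPM in MBH inputs (log2 difference 12.13, adjusted p = 1.04e-06, edgeR), with MBH values near 0.

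Grin1 (chr2:25291181-25319187, minus strand) ranged from 14.6 to 84.2 CPM in DVC inputs (median 52.5) and from 3.24 to 36.0 CPM in MBH inputs (median 18.5), a log2 difference of 1.43 ± 0.31 (adjusted p = 0.00223, edgeR). The ranges overlapped. Grin3b (chr10:79970715-79977190, plus strand), a glycine-binding subunit known from motor neurons, was found in 11 of 12 DVC inputs, with a median of 2.81 CPM and a highest value of 4.43 CPM, and was at 0 in all 12 MBH inputs. Its mean of 2.46 ± 1.46 CPM in DVC was at least 632-fold higher than the floor of 3 counts over the 12 MBH inputs (adjusted p = 0.000104, edgeR). With the sample as a block this call was lost (adjusted p = 0.0726, edgeR). Exons of Tmem259 on the opposite strand cover 32.1% of the exon bases of Grin3b. The libraries keep no strand, so reads there cannot be told apart, and Tmem259 averaged 7.90 ± 3.73 CPM in DVC inputs and 2.79 ± 3.20 CPM in MBH inputs; its part in the Grin3b difference was not tested. Among the glutamate-binding GluN2 genes none was called. Grin2c made up 62.6 ± 26.0% of their summed CPM per kb in DVC inputs and 23.2 ± 22.2% in MBH inputs, and Grin2b made up 13.6 ± 15.8% in DVC inputs and 40.4 ± 29.0% in MBH inputs, with wide spreads.

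Grm3 (chr5:9485541-9725170, minus strand) ranged from 6.77 to 26.9 CPM in DVC inputs (median 21.1) and from 0 to 9.16 CPM in MBH inputs (median 3.15), a log2 difference of 3.98 ± 0.85 (adjusted p = 0.00212, edgeR). Only the low end of the DVC range overlapped the MBH range. Grik5 (chr7:25009849-25072346, minus strand) ranged from 5.12 to 29.4 CPM in DVC inputs (median 22.3) and from 0.199 to 26.8 CPM in MBH inputs (median 6.27), a log2 difference of 1.49 ± 0.44 (adjusted p = 0.0196, edgeR). The ranges overlapped almost throughout, and the call was lost without sample AC170222 2 (adjusted p = 0.0537), AC3174 1 (0.0510), combination 2 (0.0597) or saline 3 (0.0589). No AMPA gene passed the test. Gria1 averaged 105 ± 21.9 CPM in DVC inputs and 100 ± 31.6 CPM in MBH inputs (log2 difference 0.08 ± 0.19), and Gria4 averaged 56 ± 16 CPM in DVC inputs and 23.6 ± 14.5 CPM in MBH inputs (log2 difference 1.26 ± 0.45, adjusted p = 0.0522, edgeR).

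Of the GABA receptor genes, Gabbr1 (chr17:37045966-37075067, plus strand) ranged from 122 to 195 CPM in DVC inputs (median 161) and from 73.4 to 145 CPM in MBH inputs (median 99.8), a log2 difference of 0.66 ± 0.12 (adjusted p = 0.000542, edgeR). Gabrd (chr4:155384980-155398112, minus strand), the delta subunit of extrasynaptic receptors that carry tonic inhibition, had a median of 2.17 CPM and a highest value of 8.01 CPM in DVC inputs, with 4 of 12 at 0, and was at 0 in 11 of 12 MBH inputs, with 4.07 CPM in the other. Its fitted log2 difference of 7.78 ± 1.96 (adjusted p = 0.0117, edgeR) depends on the fit's prior count, and the call was lost without sample AC3174 1 (log2 difference 5.47, adjusted p = 1) and under the sample block (7.65, adjusted p = 0.141, edgeR). Gabra5 ranged from 18.2 to 41.3 CPM in DVC inputs (median 34.9) and from 23.1 to 109 CPM in MBH inputs (median 72.6), and was lower in DVC by a log2 difference of -1.17 ± 0.23 (adjusted p = 0.00106, edgeR). The ranges overlapped, and the DVC median lay within the MBH range. Gabra5 made up 28.3 ± 6.67% of the summed CPM per kb of the 6 alpha genes in DVC inputs and 55.7 ± 19.4% in MBH inputs. These shares are descriptions and were not tested.

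**Figure D2:**
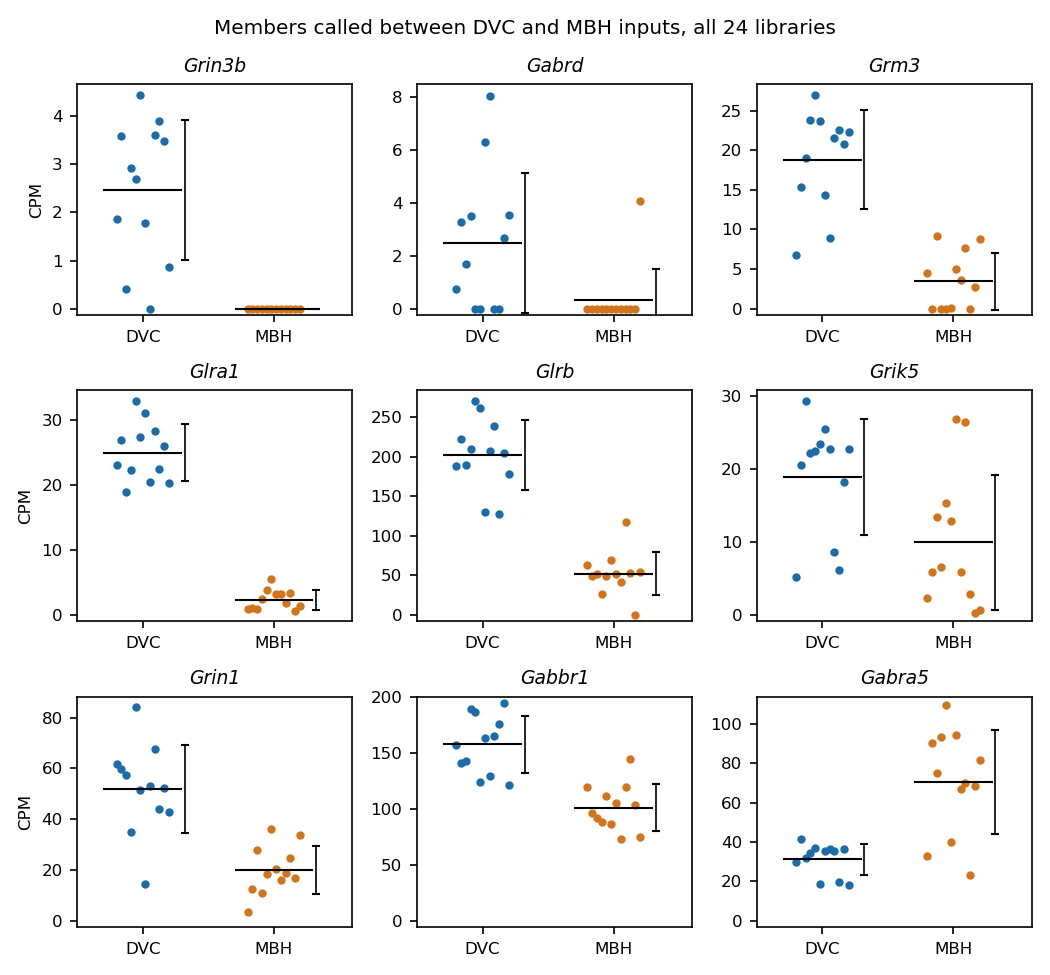
CPM in each of the 24 input libraries for the 9 members called between regions, DVC left of MBH, with the mean as a bar and the SD as a line. The DVC and MBH points of Glra1 and Glrb do not overlap, Grin3b is at 0 in all 12 MBH inputs, and Gabra5 is the 1 gene of the 9 that is lower in DVC.

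Markers of whole cell types moved between the regions as well. Over all genes tested, 11.7% were higher in DVC input and 10.2% lower. Of 12 neuron markers 10 were higher in DVC input, as were 7 of 8 astrocyte and 9 of 9 oligodendrocyte markers, and their part in the differences of the receptor genes was not tested. Within one library set, where region was compared among 4 DVC and 4 MBH inputs, 0 of 43 members were called in set 1 (1.56% of all genes), 3 of 46 in set 2 (2.85% of all genes; Glra1, Glrb and Gabra5) and 4 of 42 in set 3 (8.51% of all genes; Glra1, Glrb, Grin1 and Gria3). The log2 difference of Glra1 was 4.20 in set 1, 3.75 in set 2 and 3.05 in set 3.

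Genes that work with the receptors were examined by lists. Of all genes tested between the regions, 11.7% were higher and 10.2% lower in DVC input. Of 15 auxiliary subunits of AMPA and kainate receptors, 2 were higher in DVC input (Cacng2, or stargazin, log2 difference 1.16, and Gsg1l, 3.46) and 2 were lower (the cornichons Cnih3, -2.17, and Cnih2, -0.87). Of 16 genes of transmitter synthesis and transport, 10 were higher and 2 lower, among them the glial glutamate transporter Slc1a2 (1.87), which was higher, and the serine racemase Srr (-0.69) and the GABA-synthesising enzyme Gad1 (-0.40), both lower. Of 9 inhibitory scaffold genes 3 were higher (Clptm1, Iqsec3 and Mdga1) and 1 was lower (Gabarap). Of 18 excitatory scaffold genes 2 were higher (Shank1, 0.58, and Homer2, 0.78), and of 10 delta receptor ligands and partners 1 was higher (Nrxn3, 1.06). None of the 3 tested auxiliary subunits of GABA-B receptors was called.

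The second comparison set phospho-S6 IP against input within each region, and asked which receptor messages were richer or poorer on captured ribosomes than in total RNA. In DVC, 48 members were tested and 16 were called, 33.3% against 20.4% of all genes. Of the 16, 15 were lower in IP (13.6% of all genes) and 1 was higher (6.8% of all genes). Among the 15 were the AMPA subunit Gria2, the kainate subunit Grik5, the NMDA subunits Grin1 and Grin3b, the metabotropic receptors Grm3, Grm4 and Grm5, the GABA-A subunits Gabrd, Gabre, Gabrg1, Gabrq and Gabrr2, and the glycine receptor subunits Glra2 and Glra3. The fitted difference was below 0 for 46 of the 48 members, with a median of -1.91 over the members and -0.37 over all genes. It was above 0 for 2 of the 48 members and for 38.3% of all genes. Members summed to a median of 436 CPM in DVC IP (range 315 to 1207) and 1374 CPM in DVC input. Among the 4616 genes with the highest input level, the median was -1.90 for the 9 members included and 0.05 for all of these genes. At mean inputs from 12.2 to 46.1 CPM it was -1.54 for 17 members and -0.25 for all genes. From 1.37 to 12.2 CPM it was -2.17 for 19 members and -0.98 for all genes. Below 1.37 CPM it was -8.42 for 3 members and -1.31 for all genes. The median over all genes was thus lower at lower input levels, and that of the members lay below it at each level. The protocol takes input and IP from one homogenate. With the sample as a block, 5 members were called (7.59% of all genes), namely Glrb, Gria2, Grik5, Grm4 and Grm5, all lower in IP. Leaving out 1 sample gave 8 to 19 calls, with 8 without AC170222 1, 9 without AC170222 2 or saline 1, and 10 without AC3174 2 or combination 3.

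Grm5, the Gq-coupled receptor of postsynaptic sites, was at 0 in 9 of 12 DVC IP libraries and at most 2.85 CPM, against a range of 2.79 to 27.2 CPM and a median of 16.6 CPM in DVC inputs. The log2 difference was -6.71 ± 1.6 (adjusted p = 0.00767, edgeR; with the block it was 0.0340). Grm4, a presynaptic Gi-coupled receptor, had a median of 0.0125 CPM and a highest value of 6.24 CPM in DVC IP, against 11 CPM and 24 CPM in DVC inputs (-5.04 ± 1.40, adjusted p = 0.0160, edgeR). Grm3 had a median of 0.00993 CPM and a highest value of 23.2 CPM in DVC IP, against 21.1 CPM and 26.9 CPM in DVC inputs (-4.37 ± 1.30, adjusted p = 0.0229, edgeR). The IP and input ranges of Grm4 and Grm3 overlapped, since single IP libraries reached input levels. The call for Grm4 was lost without sample AC3174 2, combination 2 or combination 3 (adjusted p from 0.0525 to 0.0603), and that for Grm3 without AC3174 2, combination 3, saline 1 or saline 3 (0.0574 to 0.0673).

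Gabrq, the theta subunit known from hypothalamic and monoaminergic neurons, was at 0 in 9 of 12 DVC IP libraries and reached 17.4 CPM in 1, against a median of 11.9 CPM and a highest value of 28.7 CPM in DVC inputs (log2 difference -7.09 ± 1.68, adjusted p = 0.00866, edgeR). Gabrd averaged 0.0297 ± 0.0708 CPM in DVC IP and 2.48 ± 2.63 CPM in DVC inputs (-8.01 ± 1.90, adjusted p = 0.00887, edgeR). Zeros were frequent in IP for both genes, and the fitted differences depend on the prior count. Glra3 averaged 0.246 ± 0.844 CPM in DVC IP and 1.64 ± 2.01 CPM in DVC inputs (-6.99 ± 1.92, adjusted p = 0.0186, edgeR). Gabrr2 was at 0 in all 12 DVC IP libraries, at least 659-fold lower than its mean of 1.31 ± 2.20 CPM in DVC inputs, of which 7 were at 0 (adjusted p = 0.0160, edgeR). Calls for Gabrd, Gabrq, Glra3, Gabrr2 and Grm3 were lost under the sample block (edgeR, adjusted p from 0.0515 for Grm3 to 0.226 for Glra3). The call for Gabrd was also lost without sample AC3174 1, that for Gabrr2 without AC170222 1, combination 1 or saline 3, and that for Glra3 without AC170222 1, AC170222 2, combination 1 or saline 2.

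Fitted differences were smaller for 3 other called subunits. Grin1 averaged 12.9 ± 9.61 CPM in DVC IP and 52.0 ± 17.4 CPM in DVC inputs (log2 difference -2.28 ± 0.69, adjusted p = 0.0243, edgeR). Gria2 averaged 33.9 ± 30.6 CPM in DVC IP and 94.3 ± 24.5 CPM in DVC inputs (-1.73 ± 0.50, adjusted p = 0.0196, edgeR). Grik5 averaged 4.35 ± 4.59 CPM in DVC IP and 18.9 ± 7.92 CPM in DVC inputs (-2.73 ± 0.68, adjusted p = 0.00878, edgeR). Of the 12 fits that each left out 1 sample, 12 kept the call of Grik5, 7 that of Gria2, 4 that of Grin1, 4 that of Grin3b, and 2 those of Gabrg1 and Glra2. Glra1 was not called and stood at 22.1 ± 9.51 CPM in DVC IP and 24.9 ± 4.44 CPM in DVC inputs (log2 difference -0.29 ± 0.32). Grin3b was called lower, although its mean was 5.69 ± 19.0 CPM in DVC IP and 2.46 ± 1.46 CPM in DVC inputs. A single IP library, AC3174 3, held 65.9 CPM, 7 of 12 IP libraries were at 0, and that library held counts for 9925 genes. Gabrr3, the 1 member called higher, was at 0 in 8 of 12 DVC IP libraries and at most 1.24 CPM, and in input it was found in 1 library at 0.0918 CPM. Its adjusted p was 0.0499, and the call was lost in each of the 12 fits that left out 1 sample.

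Of 12 neuron markers, 5 were higher in DVC IP than in DVC input and 1 was lower, with a median log2 difference of 0.51. Over all genes tested, 6.8% were higher in DVC IP and 13.6% lower, and the list counts below stand beside these shares. Snap25, a protein of vesicle release, was higher (0.87), as was the neurofilament gene Nefl (1.49), while Syp, a synaptic vesicle protein, was lower (-1.23). Of 9 microglia markers 6 were lower, of 9 oligodendrocyte markers 4, of 6 markers of oligodendrocyte precursors 4, and 2 of 8 astrocyte markers were higher. The fitted difference was above 0 for 3 of the 8 astrocyte markers and below 0 for 5, with a median of -0.37. The part of these cell type markers in the receptor differences was not tested. Among genes that work with the receptors, 6 of 15 auxiliary subunits of AMPA and kainate receptors were lower and 0 higher, with a median of -2.03, among them Cnih2 (-3.51), Neto2 (-7.06) and Shisa9 (-8.52). Neto2 averaged 4.19 ± 9.91 CPM in DVC IP and 21.9 ± 9.00 CPM in DVC inputs, and Shisa9 averaged 0.0399 ± 0.0962 CPM and 3.73 ± 2.34 CPM. Fitted differences average the treatments on the log scale and depend on the prior count where values are near 0, so they can exceed the gap between means. Of 16 transmitter synthesis and transport genes 3 were lower: the chloride exporter Slc12a5 (-2.68), the GABA transporter Slc6a11 (-3.56) and the vesicular glutamate transporter Slc17a8 (-5.43). Slc17a8 was near 0 in both, at 0.00753 ± 0.0115 CPM in DVC IP and 0.630 ± 1.51 CPM in DVC inputs. Of 18 excitatory scaffold genes 3 were lower, Dlgap1 and Dlgap3 among them, of 9 inhibitory scaffold genes 2 (Slitrk3 and Mdga1), and of 10 delta receptor ligands and partners 3 (Nrxn2, C1ql1 and C1ql2).

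In MBH, 0 of 45 tested members were called between IP and input (0.452% of all genes were called, 0.16% higher and 0.292% lower; edgeR quasi-likelihood test). DESeq2 called 6 (11.1% of all genes) and limma-voom called 4 (2.82% of all genes). The fitted difference was below 0 for 38 of the 45, with a median of -1.13 over the members and -0.28 over all genes. It was above 0 for 7 of the 45 members and for 35.2% of all genes. Members summed to a median of 610 CPM in MBH IP (range 274 to 1384) and 1090 CPM in MBH input. Glra1 averaged 12.9 ± 23.4 CPM in MBH IP, where 1 library reached 77.7 CPM, and 2.30 ± 1.52 CPM in MBH inputs (log2 difference 1.54 ± 0.81, adjusted p = 0.538, edgeR). With the sample as a block 0 were called as well.

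**Figure D3:**
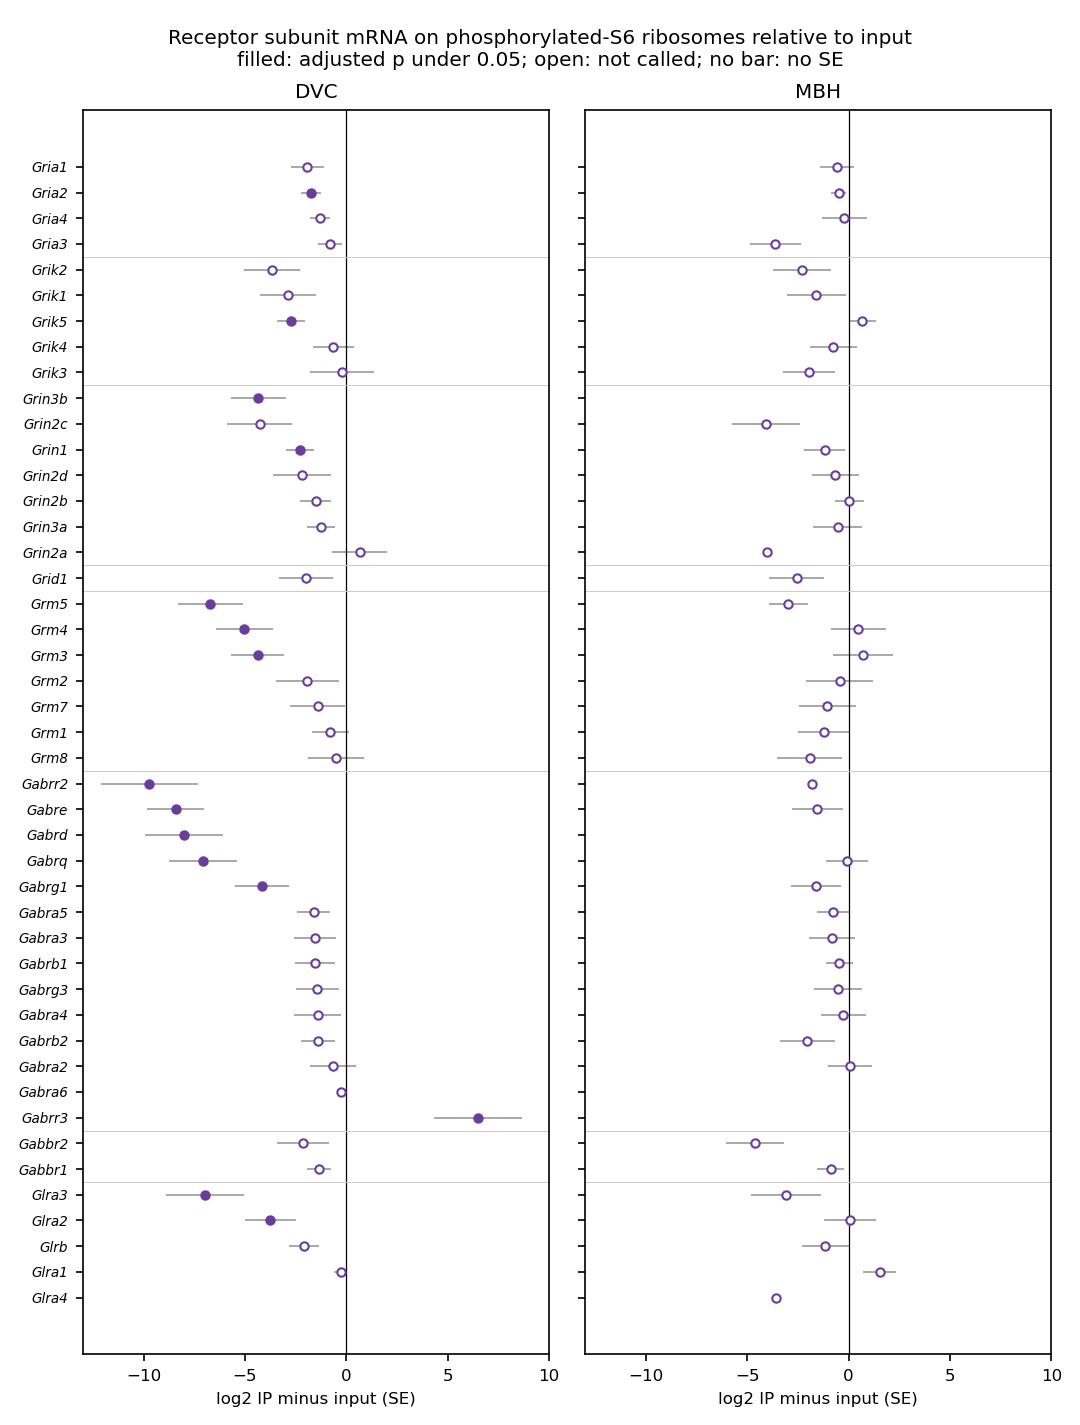
Log2 difference between IP and input with its SE for tested members, DVC on the left and MBH on the right, filled where the adjusted p is below 0.05. In DVC Gabrr3 is the 1 filled point above 0, the other filled points lie below 0, and in MBH none is filled.

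A call in DVC and none in MBH is no difference between the regions, so the IP-to-input difference in DVC was set against that in MBH in one fit. Of 49 members tested, 3 were called, 6.12% against 4.39% of all genes. All 3, Gabrq, Gabre and Grik5, were lower in DVC (2.06% of all genes were lower and 2.33% higher). In the same fit 5 of 12 neuron markers were higher, and 2 of 9 oligodendrocyte, 2 of 9 microglia and 1 of 6 oligodendrocyte precursor markers were lower; their part in the receptor differences was not tested. Gabrq averaged 3.51 ± 6.54 CPM in DVC IP and 12.2 ± 8.97 CPM in DVC inputs, and 32.7 ± 54.8 CPM in MBH IP and 29.5 ± 16.8 CPM in MBH inputs, where 1 IP library, AC170222 3, held 197 CPM. The difference of log2 differences was -6.77 ± 1.78 (adjusted p = 0.0224, edgeR). Gabre, the epsilon subunit and a neighbour of Gabrq on chromosome X, averaged 0.000558 ± 0.00193 CPM in DVC IP and 0.655 ± 0.648 CPM in DVC inputs, and 1.39 ± 1.97 CPM in MBH IP and 3.00 ± 1.96 CPM in MBH inputs (-6.51 ± 1.54, adjusted p = 0.0106, edgeR). In DVC IP its counts came from 1 of 12 libraries. Grik5 averaged 4.35 ± 4.59 CPM in DVC IP and 18.9 ± 7.92 CPM in DVC inputs, and 14.6 ± 17.5 CPM in MBH IP and 9.95 ± 9.24 CPM in MBH inputs (-3.36 ± 0.94, adjusted p = 0.0310, edgeR). With the sample as a block 0 members were called (1.03% of all genes), with adjusted p of 0.354 for Gabrq, 0.640 for Gabre and 0.196 for Grik5. Without the IP libraries under 12000 genes the calls of Gabre (adjusted p = 1, edgeR) and Grik5 (adjusted p = 0.0730, edgeR) were lost, and limma-voom did not call Gabre (adjusted p = 0.319) or Gabrq (adjusted p = 0.0910). Leaving out 1 sample left 0 calls without combination 1, and 1 call without AC3174 2, combination 3 or saline 3.

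IP levels of the members also varied with the library set. In DVC IP the summed members ranged from 371 to 458 CPM in set 1, from 452 to 1207 CPM in set 2 and from 315 to 456 CPM in set 3, while the summed neuron markers ranged from 33434 to 40913 CPM in set 1, from 16419 to 24190 CPM in set 2 and from 24440 to 38424 CPM in set 3. Set 2 held the highest receptor sums, which met those of sets 1 and 3 at their low end, and the lowest neuron marker sums. In MBH IP the members ranged from 274 to 953 CPM in set 1, from 973 to 1384 CPM in set 2 and from 401 to 537 CPM in set 3. Within sets, the DVC comparison of IP with input called 10 of 43 members in set 1 (16% of all genes), 0 of 43 in set 2 (0% of all genes) and 3 of 41 in set 3 (2.67% of all genes), all lower in IP. Grm5 was called lower in sets 1 and 3. Against the direction of all sets together, the fitted difference in set 3 was 0.24 for Glra2 and 0.37 for Grin3b, neither called there.

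**Figure D4:**
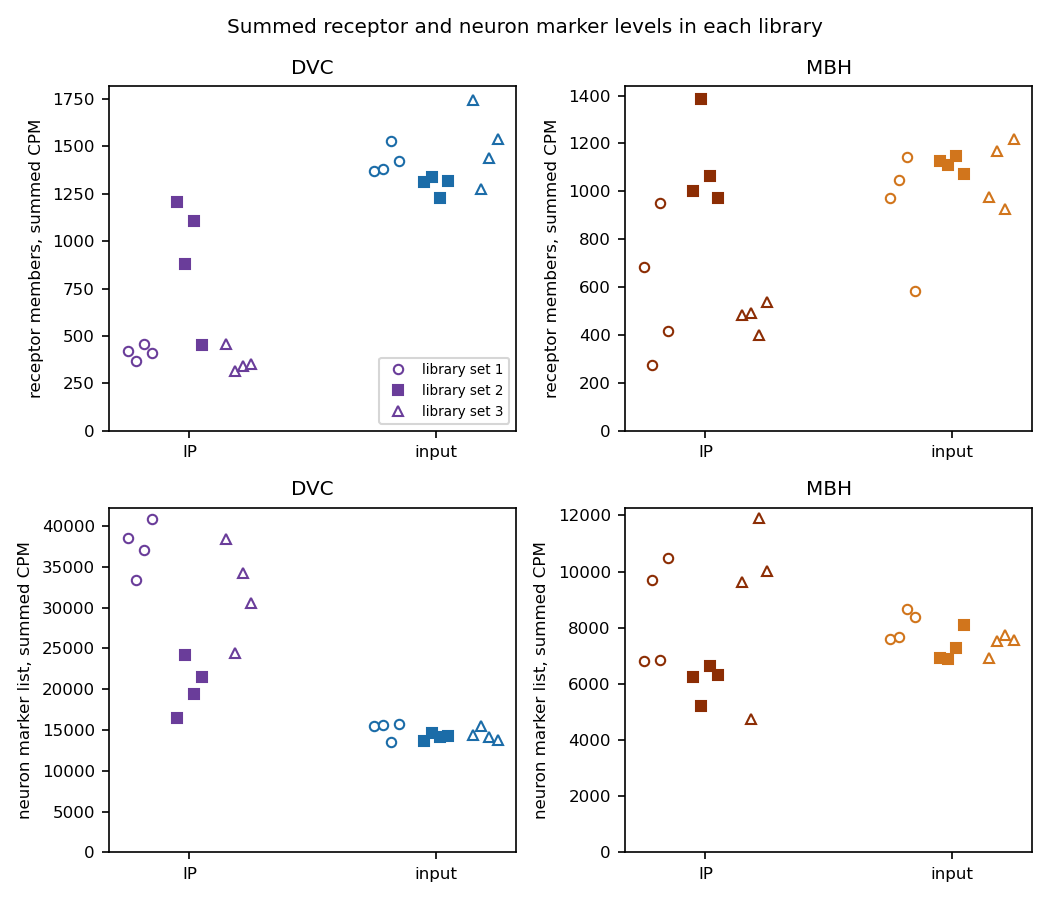
Summed CPM of the 52 members and of the neuron markers in each library, by library set, for IP and input of each region. In both regions the IP libraries of set 2 hold the highest receptor sums, up to 1207 CPM in DVC and 1384 CPM in MBH.

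The third set of comparisons asked whether AC3174, AC170222 or their combination changed receptor messages, with 3 libraries per group in each of the 4 kinds of RNA and region. The 3 contrasts against saline share the saline libraries. In none of the 20 contrasts was a member called, nor any other gene (0% of all genes; edgeR quasi-likelihood test). Against saline, member-by-contrast pairs at an unadjusted p below 0.05 numbered 9 of 129 for DVC IP (5.76% of all pairs), 6 of 138 for DVC input (4.79%), 2 of 123 for MBH IP (1.47%) and 6 of 132 for MBH input (7.91%). For the combination against each single drug they numbered 0 of 86 for DVC IP (2.6% of all pairs), 6 of 92 for DVC input (4.65%), 2 of 82 for MBH IP (1.84%) and 3 of 88 for MBH input (2.56%). On the same pairs limma-voom called 0. DESeq2 called 13 for DVC IP, 1 for DVC input, 1 for MBH IP and 4 for MBH input against saline, and 3, 1, 2 and 2 in that order against the single drugs; over all genes it called 6.75%, 1.41%, 1.99% and 3.92% of pairs against saline and 2.81%, 1.51%, 2.29% and 1.64% against the single drugs. Pairs from among those with the smallest p are given as values, with none called by edgeR.

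In DVC IP, Glra2 was at 27.5, 3.06 and 21.4 CPM with the combination and at 0 in the 3 saline libraries, at least 2394-fold higher than the floor (adjusted p = 0.817, edgeR). With AC3174 it was at 3.96, 8.21 and 0 CPM (adjusted p = 0.677, edgeR), and with AC170222 at 0, 0 and 4.55 CPM. All 3 combination libraries were above all saline libraries. Grin3b was at 1.5, 0 and 65.9 CPM with AC3174 and at 0 in the 3 saline libraries, so that the difference came from 1 library with few genes (adjusted p = 0.677, edgeR). Over the members the median log2 difference from saline in DVC IP was 0.87 for AC3174, 0.72 for AC170222 and 1.06 for the combination, against -0.02, 0.03 and 0.07 over all genes. These 3 medians share the saline libraries. Saline and AC170222 hold the same library sets, while AC3174 and the combination share only set 2 with saline. With library set as a covariate the medians over the members were 1.14 for AC3174, 0.64 for AC170222 and 2.58 for the combination, against 0.25, 0.15 and 0.51 over all genes. That fit links AC3174 and the combination to saline only through set 2, which holds 1 library of each treatment. In set 2, DVC IP saline 3 held 23 members, against 43 in AC3174 1, 38 in AC170222 3 and 39 in combination 1.

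In DVC input, Gabrg1, a gamma subunit gene of the chromosome 5 cluster, was at 7.70, 2.67 and 4.03 CPM with the combination, against 28.5, 12.1 and 24.4 CPM with AC170222, 21.7, 16.7 and 15 CPM with AC3174, and 7.92, 11.7 and 26.8 CPM with saline. The combination libraries lay below all libraries of the other 3 groups. The log2 differences were -2.18 ± 0.57 from AC170222 (adjusted p = 0.929), -1.89 ± 0.57 from AC3174 (adjusted p = 1) and -1.67 ± 0.56 from saline (adjusted p = 0.891, edgeR for all 3).

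In MBH IP, Gabbr2 was at 19.0, 0 and 27.0 CPM with the combination and at 0 in the 3 AC3174 libraries. Its adjusted p was 1 (edgeR), and the groups overlapped at 0. In MBH input, Grik5 was at 26.8, 5.93 and 26.4 CPM with the combination, against 2.89, 0.199 and 0.691 CPM with saline, with no overlap (log2 difference 4.01 ± 1.17, adjusted p = 0.528, edgeR). With AC3174 it was at 6.61, 15.4 and 12.9 CPM, and with AC170222 at 2.27, 5.93 and 13.4 CPM. The saline value of 0.199 CPM is that of saline 2, the input library with the fewest genes (12853). Saline libraries lie in library sets 1 and 2 and combination libraries in sets 2 and 3, so treatment and set are partly confounded here. Gabrr2 was at 0 in the 3 AC3174 libraries of MBH input, against 9.19, 0 and 2.39 CPM with saline (adjusted p = 0.560, edgeR) and 2.95, 0.738 and 6.67 CPM with the combination (adjusted p = 1, edgeR).

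**Figure D5:**
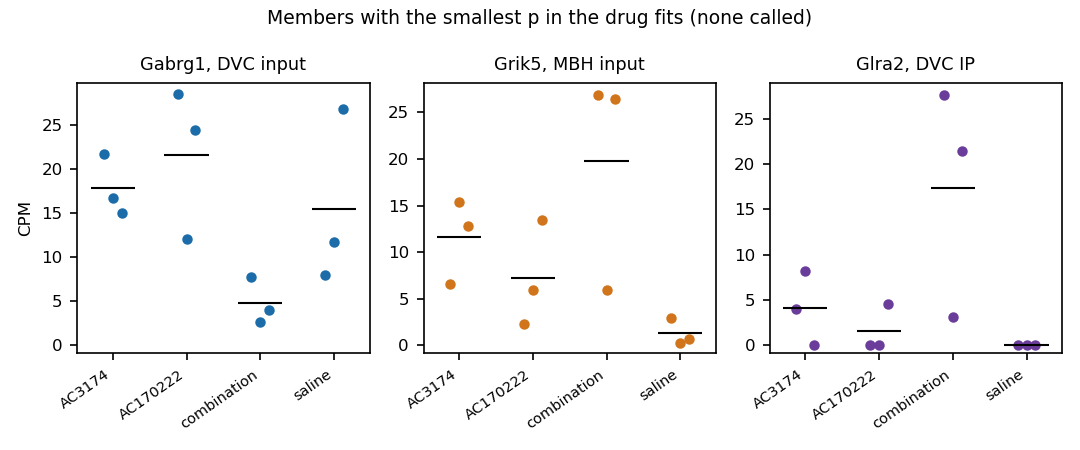
CPM in each library of the 4 treatments for Gabrg1 in DVC input, Grik5 in MBH input and Glra2 in DVC IP, 3 libraries per group. The combination points of Gabrg1 lie below those of the other groups and those of Grik5 above the saline points, and no difference is called after adjustment.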

How the data were processed

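Per the labels, RNA from input and phospho-S6 IP was amplified with a SMART-Seq v4 kit and made into libraries by tagmentation, which keeps no strand. The submitters' processing notes name HTSeq 0.6.1p1, TopHat2 2.0.11 and the build GRCm38, and the sources used here do not give the annotation. The authors deposited raw read counts per gene, whole numbers, for 38293 genes in 48 libraries. Symbols, positions and exon lengths came from GENCODE M21 on GRCm38, which matched 36345 identifiers and all 52 members; RefSeq gave the promoters.

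Counts were analysed with edgeR 4.0.16 in R 4.3.3: normalization by the trimmed mean of M values, its default filter on low counts, the quasi-likelihood F test and Benjamini-Hochberg adjustment over all genes tested, with a call at an adjusted p below 0.05. The SE of a log2 difference was taken as its size divided by the square root of F. Region was tested on 24 inputs and IP against input on 24 libraries of a region. Both fits had a mean for each group, and the contrast averaged the log2 differences of the 4 treatments with equal weight. The IP-to-input difference between regions was the interaction over 48 libraries, averaged over treatments in the same way. Each drug fit used the 12 libraries of a single region and RNA kind. Where a whole group was at 0, a floor of 3 counts over that group was used. Reads carry no molecular identifiers, so floors cover counting error only. The labels do not say which animals stand behind a library, so p-values measure the spread between libraries, which may be technical.

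The members and the lists were chosen with earlier results of these data known. Named with a test were, by rule, up to 12 called members per direction between regions and up to 8 per direction in each IP comparison, by size of the log2 difference, with a mean of at least 1 CPM in the higher group for both, and in each drug fit the 3 pairs with the smallest p where none was called. With levels only, the highest and lowest member of each class per kb were named, and of the other lists up to 3 called genes per direction by p. Gabrr3 and Grin3b in DVC IP, and Gria1, Gria2, Gria4, Grin1, Grik5, Glra1 and Glra2 where not called or not among these were named after their values were seen. Some genes that these rules name, members among them, are not reported here, in the text or in the plots of single genes.

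The alternatives were DESeq2 1.42.0, limma-voom (limma 3.58.1), DESeq2 size factors, no low-count filter, library set as a covariate, IP libraries under 12000 genes left out, each sample left out, and sample number as a block. Library sets alone were chosen after seeing the data. The protocol takes input and IP from one homogenate and the titles number both, though no label pairs them outright; the deviations of an IP and its input correlated above 0.1 in 0 of 12 samples in DVC and in 0 of 12 in MBH, so the block is given beside the results and not used as the main design. Across regions 4 of 12 pairs did so, and across treatments 3 to 14 of 18. The fits were tested on simulated counts with known changes.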

Additional observations from a re-analysis of the deposited data

Results flagged for a closer look

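The IP-to-input difference of 3 members differed between the regions in a test of the difference itself (the interaction of RNA kind and region, edgeR quasi-likelihood test), 6.12% of those tested against 4.39% of all genes. With the sample as a block 0 were called, with adjusted p from 0.196 to 0.640. For Gabrq the log2 difference in DVC minus that in MBH was -6.77 (adjusted p = 0.0224), with 9 of 12 DVC IP libraries at 0 against 3 of 12 MBH IP libraries. For Gabre it was -6.51 (adjusted p = 0.0106), with 11 of 12 DVC IP libraries at 0 against 4 of 12 MBH IP libraries. For Grik5 it was -3.36 (adjusted p = 0.0310), with values in 11 of 12 DVC IP libraries and all 12 MBH IP libraries. Fits that left out 1 sample at a time kept the call in 10 of 12 for Gabre, 4 of 12 for Gabrq and 3 of 12 for Grik5.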

How the results depend on the processing

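Between regions 9 members were called; DESeq2 called 19 (33.0% of all genes), limma-voom 16 (29.9%), the replicate block 7 (16.1%), and library sets 1, 2 and 3 alone 0, 3 and 4; leaving out 1 sample gave 8 to 12. For IP against input in DVC 16 were called; DESeq2 called 27 (34.5% of all genes), limma-voom 38 (34.7%), the replicate block 5 (7.59%), and the sets alone 10, 0 and 3. Leaving out 1 sample gave 8 to 19, with 8 without AC170222 1, 9 without AC170222 2 or saline 1, and 10 without AC3174 2 or combination 3. For IP against input in MBH 0 were called; DESeq2 called 6 (11.1% of all genes), limma-voom 4 (2.82%), the replicate block 0, and leaving out 1 sample gave 0 to 1 (Gria1, without AC3174 1). For the IP-to-input difference between regions 3 were called; DESeq2 called 16 (17.5% of all genes), limma-voom 5 (8.36%), without Gabre and Gabrq, and the replicate block 0 (1.03%), and leaving out 1 sample gave 0 to 3. Without IP libraries under 12000 genes 2 were called (7.53% of all genes), Gabre and Grik5 not among them. In the drug fits leaving out 1 sample, the replicate block and limma-voom gave 0 throughout, and DESeq2 called 13, 1, 1 and 4 pairs against saline and 3, 1, 2 and 2 against the single drugs, in DVC IP, DVC input, MBH IP and MBH input in that order. In library set 3 alone the DVC difference between IP and input turned to 0.24 for Glra2 and 0.37 for Grin3b. The cause of these changes was not tested. Scaling by DESeq2 size factors moved the median of all genes by -0.10 for IP against input in DVC, by 0.11 in MBH and by -0.35 for the IP-to-input difference between regions, where it left 153 of 644 calls over all genes higher, against 453 of 852. It left 46 of 48, 37 of 45 and 39 of 49 members below 0 in these comparisons. Where both groups were at 0 without a sample, no value was given. What depth could show in the drug fits was checked for AC3174 against saline alone and did not follow total counts, which were highest in DVC IP: on simulated counts, 1 of 100 genes changed by 2 on the log2 scale was recovered in DVC IP, 0 of 100 in MBH IP, 50 of 100 in DVC input and 19 of 100 in MBH input. Of genes changed by 4, 14 of 100 were recovered in DVC IP, 0 of 100 in MBH IP, 67 of 100 in DVC input and 50 of 100 in MBH input. The changed genes were drawn from those with a mean expected count over 100, so genes with few counts, many members among them, were not covered.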
